A study of Homo sapiens with 24 samples.

Results

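The genes described here are the 6 members of the CCN family of secreted matrix-associated proteins (CCN1 to CCN6) together with 4 genes of the YAP pathway (ANKRD1, AMOTL2, LATS2 and YAP1), 10 genes of the 34496 listed in any of the 6 deposited tables. They were selected on the measured normalized counts of CCN3, chosen by its rise after STM2457 in all 4 cell lines, so the CCN3 values under STM2457 are a description and carry no test. The other 9 genes were taken by family or pathway membership, with earlier results of these data known. Of the 10 genes, 8 were listed in every table. ANKRD1 was listed in the 3 U87 tables and in no LN229 table, and CCN6 in the U87 MG treatment table only.

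Polyadenylated RNA was sequenced in 24 libraries from 4 established human glioblastoma lines: U87 MG, LN229, and a temozolomide-resistant derivative of each, named U87-R and LN229-R. Each line received either 50 µM STM2457 for 96 h or DMSO, the solvent, with 3 replicates in each of the 8 groups. STM2457 is an inhibitor of METTL3, the enzyme that writes the N6-methyladenosine (m6A) mark on messenger RNA, and temozolomide is the alkylating drug used against glioblastoma. The medium of both resistant lines contained 50 µM temozolomide and that of the parental lines did not, so resistance and the drug in the medium cannot be told apart. The U87 family grew in EMEM with 10% serum and was sequenced from stranded TruSeq libraries. The LN229 family grew in DMEM with 5% serum and pyruvate and was sequenced from Watchmaker libraries, so a difference between the families cannot be told apart from medium and kit. How the resistant lines were derived, and whether replicates were separate cultures, is not given in the labels. The p-values therefore measure the spread between these samples, which may be technical.

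CCN proteins are matricellular: they sit in the extracellular matrix, bind integrins and proteoglycans, and shape growth factor signalling and adhesion rather than serving as structural matrix. YAP (gene YAP1) and its paralogue TAZ (gene WWTR1) are transcriptional coactivators that act through the DNA-binding TEAD factors. The Hippo kinases LATS1 and LATS2 phosphorylate YAP and TAZ and so keep them out of the nucleus. CCN1, CCN2, ANKRD1 and AMOTL2 are widely used readouts of YAP and TAZ activity, while LATS2 and AMOTL2 are targets that also restrain the pathway.

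TEAD factors bind DNA at the core motif GGAATG. The promoter sequences of CCN2 and ANKRD1 are shown because both genes are standard TEAD targets and their values by group are given below. Each line holds the 250 bases before the RefSeq start site on the gene's own strand (GRCh38.p14), 5′ to 3′, with GGAATG in capitals; the CCN2 window is chr6:131951373-131951622 and the ANKRD1 window chr10:90921088-90921337, both on the minus strand.
CCN2: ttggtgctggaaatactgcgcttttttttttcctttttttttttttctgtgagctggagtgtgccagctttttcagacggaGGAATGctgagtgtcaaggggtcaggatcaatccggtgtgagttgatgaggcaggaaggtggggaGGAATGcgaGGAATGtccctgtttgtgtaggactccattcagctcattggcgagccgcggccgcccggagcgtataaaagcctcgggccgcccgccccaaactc
ANKRD1: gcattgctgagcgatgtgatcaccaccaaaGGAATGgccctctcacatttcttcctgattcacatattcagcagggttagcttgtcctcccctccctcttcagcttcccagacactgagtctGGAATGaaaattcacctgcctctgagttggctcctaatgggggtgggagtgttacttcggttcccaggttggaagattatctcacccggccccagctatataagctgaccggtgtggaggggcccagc

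The CCN2 window held 3 copies, with first bases 169, 104 and 95 bases before the start. ANKRD1 held 2 copies, at 220 and 128 bases. The motif was searched on both strands. Of 35116 promoter windows of this length, 11.9% held at least 1 copy, 0.94% at least 2 and 0.0826% at least 3. Single copies were found for YAP1, 162 bases before its start, and CCN6, 128 bases before its start. AMOTL2 has 2 start sites in the table, one with no copy and one with a copy on the reverse strand, and LATS2 had none. The promoters of CCN1, CCN3, CCN4 and CCN5 have no entry in the table and were not searched. A match to these letters is a description of the window and shows no binding in these cells.

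In GRCh38.p14 the genes lie apart. CCN1 is on chromosome 1 (85580761 to 85583950), AMOTL2 on chromosome 3 (134355345 to 134375417), CCN6 and CCN2 on chromosome 6 (112052813 to 112069686 and 131948176 to 131951372) and CCN3 and CCN4 on chromosome 8 (119416446 to 119424434 and 133191039 to 133231690). ANKRD1 is on chromosome 10 (90912096 to 90921087), YAP1 on chromosome 11 (102110447 to 102233424), LATS2 on chromosome 13 (20973036 to 21061586) and CCN5 on chromosome 20 (44714861 to 44727811).

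The deposited values are normalized counts, scaled by the authors within each table of 6 libraries. Levels were therefore compared only within a table, apart from the markers below and the check of the names LN229 and LN229-R. Among the members, a gene's level is not compared with that of another gene. Library totals ran from 21232924 to 25349361 normalized counts for U87 cells and from 24101385 to 28716587 for LN229 cells, and replicates correlated at 0.966 to 0.988 (Pearson, log2 values). Of 8 glioma line markers, 7 or 8 were listed per table and summed to 97320 to 246900 per library. VIM had the highest mean of them in every group. SOX2 and S100B, neural and glial markers, were present in the LN229 family (means of 1031 and 13840 in LN229 DMSO), while in U87 MG DMSO SOX2 was at 0.40 and S100B at 2.11. Under STM2457 the S100B mean was 3553 against 13840 in LN229 and 6290 against 24410 in LN229-R, and that of CD44 was 32280 against 13680 and 39140 against 13660. In LN229-R the means of VIM (42140 against 70540), NES (7677 against 12430) and OLIG2 (276.9 against 913.3) were lower under STM2457 too. CD44 was the only 1 of the 8 with a higher mean there. Epithelial markers (2 to 5 of 5 listed) summed to 8.747 to 89.56 and endothelial markers (4 or 5 of 5) to 56.3 to 411.4; the KDR mean was 110.1 under STM2457 against 14.94 in DMSO in LN229 and 87.56 against 12.02 in LN229-R. Hematopoietic markers (1 to 4 of 5) summed to 53.19 to 20460, nearly all CD68. Its mean was 17610 under STM2457 against 13190 in U87 MG, 12750 against 10030 in U87-R, 440.9 against 80.26 in LN229 and 431.3 against 66.34 in LN229-R, and the defining marker PTPRC was near 0 or not listed. Fibroblast and pericyte markers (5 of 5) summed to 1774 to 20490. Their members differed in opposite directions between treatments. In U87 MG and U87-R the COL1A1 mean was 3220 against 13460 and 3560 against 13230, and that of PDGFRB 1105 against 3072 and 1458 against 2647, all lower under STM2457. DCN (251.2 against 109.1 and 94.86 against 30.86) and LUM (127.4 against 80.07 and 91.45 against 58.96) were higher under STM2457 there. In LN229 and LN229-R DCN was lower (135.1 against 378.3 and 31.06 against 98.92) and PDGFRB higher (519.2 against 319.7 and 363.2 against 169.5). The part of these markers in the results was not tested.

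The names LN229 and LN229-R did not agree between tables. Each DMSO library of the resistance table was compared with those of the treatment tables by the SD of the log2 ratio over genes with a mean of at least 200. All 6 U87 libraries matched the library of the same name (SD 0.0583 to 0.0601). All 6 LN229 libraries matched the same-numbered library of the other line's name (SD 0.058 to 0.062, against 0.341 to 0.399 for the library of the same name). The STM2457 libraries bear on this too. Over 1483 genes that differed between the LN229 lines in DMSO, the STM2457 libraries of the treatment tables differed between the lines in the same direction as the DMSO libraries of those tables for 93.7%. They differed in the direction of the resistance table for 6.2%. In the U87 family the first share was 97.8% of 685 genes. The names of the treatment tables were thus coherent between DMSO and STM2457. Which table names the 2 lines rightly is not known. Below, the resistance table's libraries are called "labelled LN229" and "labelled LN229-R". Elsewhere LN229 and LN229-R are the names of the treatment tables, and which of them is the resistant line is not known.

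**Figure D1:**
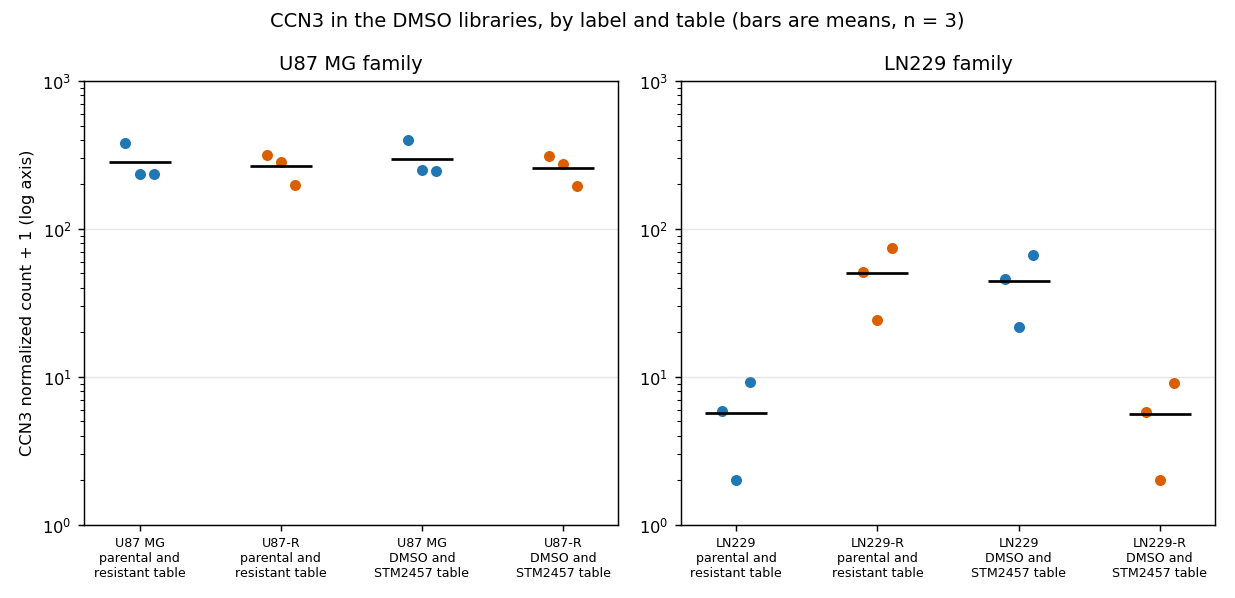
CCN3 in each DMSO library (points, normalized count + 1 on a log axis; bars are means, n = 3), by line name and table, for the U87 family (left) and the LN229 family (right). In the LN229 family the 3 points named LN229 in the treatment table (20.7 to 65.5 normalized counts) sit level with those named LN229-R in the resistance table (23.3 to 73.7), and the low points carry the other name in each.

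METTL3, the target of the compound, did not pass in any line. Its changes were 0.08, 0.15, -0.04 and -0.16 on the log2 scale (U87 MG and U87-R, then LN229 and LN229-R; adjusted p 0.699, 0.498, 0.743 and 0.29). STM2457 inhibits the enzyme, so the METTL3 transcript does not check the treatment.

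Changes below are differences of mean log2(normalized count + 1), fitted with limma and adjusted by Benjamini-Hochberg over all genes tested. A gene passed at an adjusted p under 0.05, and this scale understates the change of low genes. RNA per cell and cell number cannot be told apart in these bulk libraries. Without CCN3, 2 of 8 members tested passed in U87 MG (1 higher, 1 lower). Of all 16407 genes tested there, 13.6% passed, 7.86% as higher and 5.72% as lower. In U87-R 3 of 7 passed (1 higher, 2 lower), beside 14.7% of all genes, 8.46% as higher and 6.2% as lower. These fits did not use the pairing of like-numbered replicates. With the replicate number as a block, 5 of the 7 passed in U87-R (1 higher, 4 lower), beside 4796 of all 16185 genes. CCN5 reached the minimum mean of 10 in the LN229 lines through its STM2457 group alone and is left out of the counts. In LN229 3 of the other 6 passed (2 higher, 1 lower), beside 49.7% of all genes, 26.2% as higher and 23.6% as lower. In LN229-R 3 of the other 5 passed (2 higher, 1 lower), beside 38.6% of all genes, 21.5% as higher and 17.1% as lower. Of the genes called in U87 MG 57.9% were higher, and 68.6% when libraries were scaled to equal totals; with equal upper quartiles it was 48.6%. With equal upper quartiles the share was 51.5% in U87-R (57.7% as deposited), 45.5% in LN229 (52.6%) and 48.4% in LN229-R (55.7%), so which direction was in excess depended on the scaling in U87 MG, LN229 and LN229-R. With 49.7% of all genes called in LN229 and 38.6% in LN229-R, the members' counts there are read as no result about them.

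CCN3, known for restraining growth and for opposing CCN2 in fibrosis, is the gene the others were gathered around. In U87 MG it had 400.1, 247.3 and 246.9 normalized counts in DMSO and 629.1, 541.2 and 453.8 under STM2457. Means were 298.1 ± 88.3 and 541.4 ± 87.7 (SD, n = 3), 1.82-fold apart. U87-R had 309.5, 274.0 and 192.6 in DMSO and 458.1, 477.7 and 515.7 under STM2457, 1.87-fold apart. The difference on the log2 scale was 0.88 (SE 0.215) in U87 MG and 0.93 (SE 0.188) in U87-R.

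In the separately normalized LN229 tables CCN3 was low in DMSO. LN229 had 44.5, 20.7 and 65.5 in DMSO and 631.0, 453.4 and 438.9 under STM2457, 11.6-fold apart and 3.64 (SE 0.374) on the log2 scale. LN229-R had 4.8, 0.99 and 8.0 in DMSO and 262.1, 78.5 and 142.0 under STM2457. That is 4.94 (SE 0.64) on the log2 scale, and CCN3 reached the minimum mean of 10 in LN229-R through its STM2457 group alone. In every line the lowest STM2457 library lay above the highest DMSO library; such a gap higher under STM2457 was seen for 18.3%, 18.4%, 30.7% and 27.5% of all genes, in the order U87 MG, U87-R, LN229, LN229-R, and nothing is read from it because this contrast chose the gene. With a pseudocount of 5 the LN229-R difference became 4.02.

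**Figure D2:**
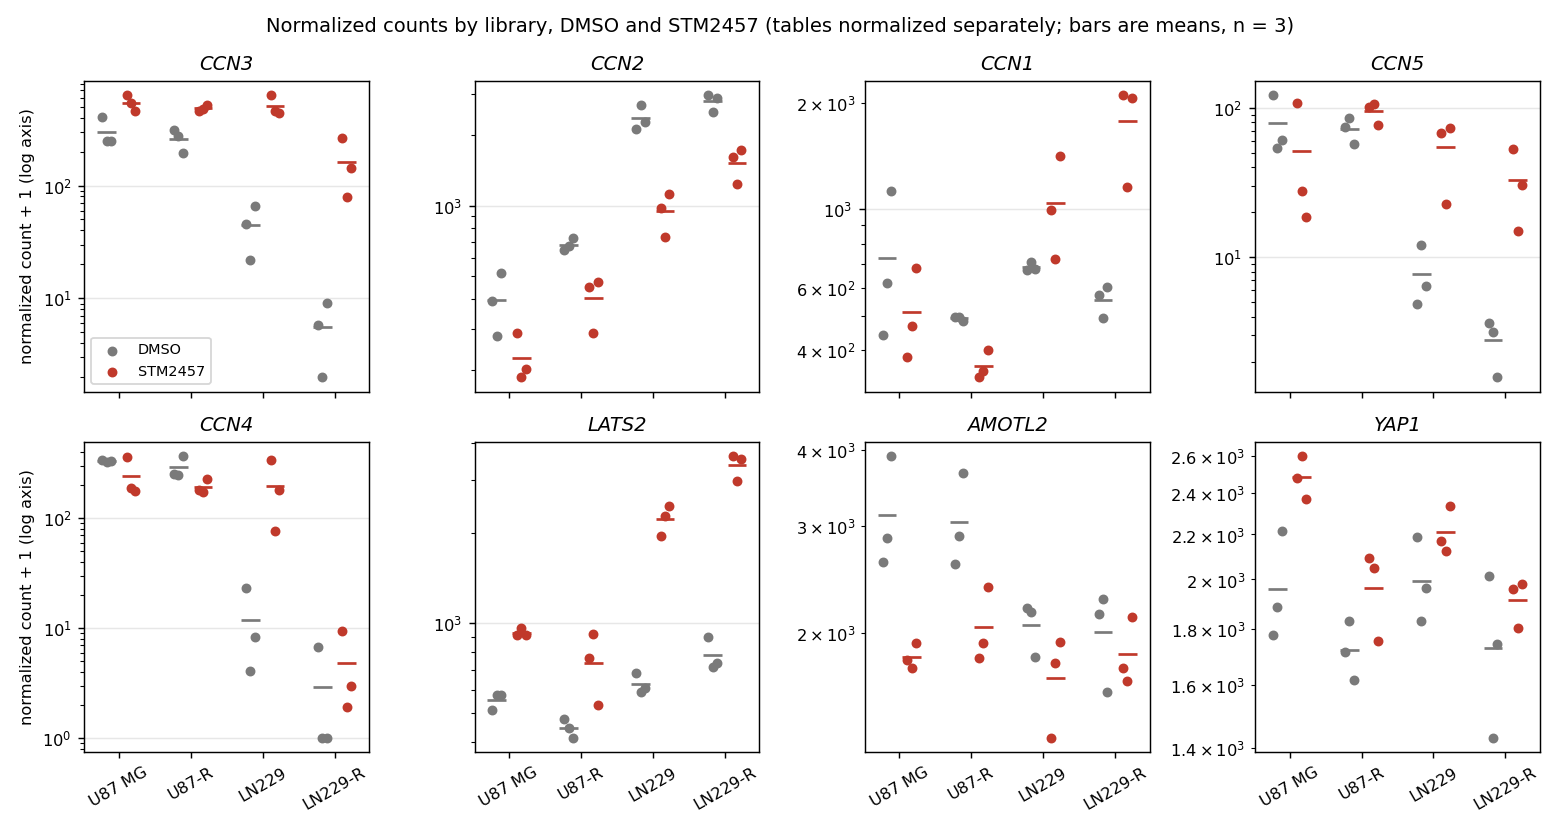
Normalized count + 1 of 8 members in every library (points, log axis; bars are means, n = 3), by line and treatment, each line on its own table's scale. CCN3 and LATS2 points under STM2457 lie above the DMSO points in all 4 lines, and CCN2 points lie below them in U87-R, LN229 and LN229-R.

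CCN2, also known as CTGF, promotes matrix deposition and is the most used YAP and TAZ readout. It fell in 3 lines. In LN229 it had 2124, 2669 and 2269 normalized counts in DMSO and 979.5, 736.0 and 1117 under STM2457, a change of -1.33 (SE 0.157, limma adjusted p 0.000302). LN229-R had 2952, 2514 and 2861 in DMSO and 1605, 1241 and 1725 under STM2457 (-0.88, SE 0.144, limma adjusted p 0.00257). The groups did not overlap in either line. A gap with the STM2457 libraries lower was seen for 16.5% of all genes in U87 MG, 16.9% in U87-R, 29.9% in LN229 and 25.6% in LN229-R.

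In U87-R CCN2 had 647.3, 674.4 and 725.1 in DMSO and 450.2, 286.1 and 473.4 under STM2457 (-0.79, SE 0.194, limma adjusted p 0.0278). This call was kept in 2 of 6 fits that left out 1 library, with an adjusted p of up to 0.0855. In U87 MG CCN2 had 391.6, 278.0 and 516.0 in DMSO and 286.5, 184.9 and 200.9 under STM2457. The change of -0.80 (SE 0.251) did not pass (limma adjusted p 0.068), and the groups overlapped. With the replicate number as a block CCN2 passed there (limma adjusted p 0.0203), though whether these replicates were paired is not known. Without DMSO replicate 2 or STM2457 replicate 1 the unpaired change also passed, at limma adjusted p 0.0473 and 0.0449.

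CCN1, also known as CYR61, is the second classic YAP and TAZ readout and an integrin ligand. It rose in LN229-R from 570.1, 489.6 and 601.5 to 2105, 1158 and 2069 normalized counts, 3.21-fold (1.64, SE 0.23, limma adjusted p 0.00131). In LN229 it had 672.1, 708.4 and 676.2 in DMSO and 993.0, 722.0 and 1416 under STM2457, with no overlap (0.55, SE 0.21, limma adjusted p 0.0564). Without STM2457 replicate 2, the lowest treated library, that difference was 0.79 and passed at 0.00204. The CCN1 and CCN2 values thus lay on opposite sides of DMSO in LN229-R.

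In U87-R CCN1 had 494.2, 495.7 and 480.7 in DMSO and 333.0, 347.0 and 399.2 under STM2457. The groups did not overlap, and the change of -0.45 (SE 0.131) had a limma adjusted p of 0.0503. With the replicate number as a block it passed (adjusted p 0.0226). U87 MG had 438.2, 616.9 and 1129 in DMSO and 380.8, 467.5 and 680.7 under STM2457, which overlapped (-0.44, SE 0.331, limma adjusted p 0.41). The replicate block gave a limma adjusted p of 0.0368 there, though whether these replicates were paired is not known.

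CCN4, also known as WISP1 and named for its induction by Wnt signalling, rose in LN229. It had 22.3, 3.1 and 7.4 normalized counts in DMSO and 334.1, 75.7 and 181.0 under STM2457 (4.17, SE 0.695, limma adjusted p 0.00164). Its DMSO mean of 10.92 lay just above the minimum of 10, and its DMSO median of 7.357 below it. The call thus starts from a DMSO level near the floor. LN229-R had 5.8, 0 and 0 in DMSO and 8.5, 0.94 and 2.0 under STM2457, below the minimum for a test.

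In U87-R CCN4 had 249.2, 248.4 and 367.0 in DMSO and 180.3, 170.4 and 225.3 under STM2457, with no overlap (-0.57, SE 0.204, limma adjusted p 0.0976). The replicate block gave an adjusted p of 0.0168. U87 MG had 338.5, 323.0 and 328.4 in DMSO and 358.4, 186.6 and 176.0 under STM2457 (-0.53, SE 0.256, limma adjusted p 0.203). Its STM2457 replicate 1 alone lay above the DMSO libraries, and without it the change was -0.86 and passed (adjusted p 0.0147).

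CCN5, also known as WISP2, lacks the C-terminal domain of the other family members and restrains smooth muscle growth. In both LN229 lines it was near 0 in DMSO, at means of 6.778 and 1.778. LN229 had 3.9, 11.01 and 5.5 normalized counts in DMSO and 66.8, 21.8 and 72.4 under STM2457 (2.74, SE 0.543). LN229-R had 2.6, 2.1 and 0.57 in DMSO and 52.0, 13.99 and 29.6 under STM2457 (3.47, SE 0.597). The groups did not overlap in either line. Since the gene had to be high under STM2457 to be tested at all, these values are a description without a test. In the U87 lines CCN5 did not pass. U87 MG had 120.9, 52.7 and 60.1 in DMSO and 107.8, 26.8 and 17.7 under STM2457, and U87-R had 73.4, 85.2 and 56.3 in DMSO and 100.7, 105.0 and 75.9 under STM2457 (-0.94 and 0.39, limma adjusted p 0.349 and 0.327). Without STM2457 replicate 1 the U87 MG change was -1.69 and passed (adjusted p 0.0443).

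CCN6, linked to a skeletal dysplasia of the joints, was listed at 0, 0 and 1.0 in U87 MG DMSO and 0, 0 and 0.86 under STM2457, below any test.

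ANKRD1, a cardiac ankyrin repeat protein and strong YAP target, did not pass in U87 MG. It had 37.8, 44.4 and 53.4 in DMSO and 31.1, 66.9 and 57.1 under STM2457 (0.13, SE 0.342, limma adjusted p 0.836; 95% interval -0.64 to 0.91). U87-R had 3.7, 2.0 and 4.1 in DMSO and 7.9, 7.4 and 3.1 under STM2457, below the minimum.

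AMOTL2, an angiomotin that binds YAP and activates LATS kinases, fell in both U87 lines. In U87 MG it had 2612, 2859 and 3903 normalized counts in DMSO and 1810, 1755 and 1925 under STM2457, with no overlap (-0.75, SE 0.147, limma adjusted p 0.0123). Without STM2457 replicate 2 the adjusted p was 0.0586. U87-R had 2592, 2883 and 3656 in DMSO and 1823, 1929 and 2378 under STM2457 (-0.57, SE 0.152, limma adjusted p 0.0375), a call kept in 2 of 6 fits without 1 library. In LN229 and LN229-R the groups overlapped and the changes of -0.30 (adjusted p 0.11) and -0.11 (adjusted p 0.602) did not pass in limma.

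LATS2, the Hippo kinase that is also a YAP target, rose in all 4 lines, and in each the STM2457 libraries lay above the DMSO libraries. In LN229 it had 682.1, 586.8 and 605.2 normalized counts in DMSO and 1960, 2271 and 2465 under STM2457, 3.57-fold (1.83, SE 0.109, limma adjusted p 1.34e-05). LN229-R had 895.3, 711.5 and 734.3 in DMSO and 3616, 2991 and 3523 under STM2457, 4.33-fold (2.11, SE 0.131, limma adjusted p 4.72e-05). The rise was smaller in the U87 family. U87 MG had 513.1, 575.5 and 574.8 in DMSO and 912.2, 962.9 and 915.4 under STM2457, 1.68-fold (0.75, SE 0.108, limma adjusted p 0.00394).

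U87-R had 477.5, 444.8 and 412.3 in DMSO and 763.9, 918.5 and 531.9 under STM2457, where replicate 3 lay closest to DMSO (0.70, SE 0.194, limma adjusted p 0.0438). This call was kept in 1 of 6 fits without 1 library, with an adjusted p of up to 0.157, and it was lost with libraries scaled to equal totals (0.75, adjusted p 0.0529). Of 13363 genes tested in all 4 lines, 4.21% passed as higher in each line, as LATS2 did, and 1.35% as lower in each.

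YAP1 itself passed in no line. Its changes were 0.35 (SE 0.108, limma adjusted p 0.0664), 0.19 (0.286), 0.15 (0.193) and 0.16 (0.393), in the same order of lines. U87 MG had 1778, 1887 and 2214 normalized counts in DMSO and 2476, 2597 and 2371 under STM2457, with no overlap. With libraries scaled to equal totals, YAP1 passed in U87 MG (0.41, adjusted p 0.0286).

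**Figure D3:**
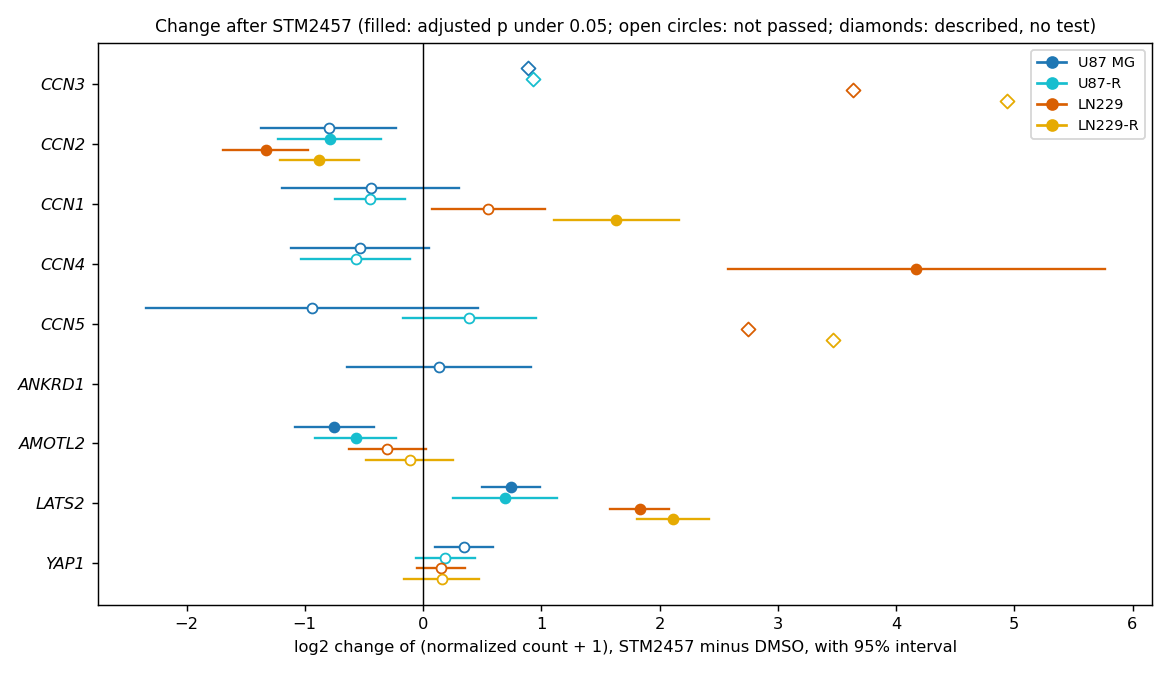
Change of each member after STM2457 (log2 scale) with its 95% interval, coloured by line; filled points passed at an adjusted p under 0.05, and diamonds (CCN3, and CCN5 in both LN229 lines) have no test and no interval. LATS2 lies right of 0 in all 4 lines, CCN2 left of 0 in all 4 with its U87 MG point open, and CCN4 in LN229 (4.17) lies farthest right among the tested points.

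The paralogue of YAP, WWTR1 (TAZ), fell in all 4 lines. U87 MG had 3028, 2930 and 2710 normalized counts in DMSO and 1569, 1742 and 1875 under STM2457, and U87-R 2439, 2755 and 2837 in DMSO and 1335, 1547 and 1547 under STM2457 (-0.74 and -0.86, limma adjusted p 0.00329 and 0.00219). LN229 had 19830, 16620 and 17560 in DMSO and 7593, 8505 and 9759 under STM2457, and LN229-R 22940, 17620 and 18220 in DMSO and 12990, 8711 and 12160 under STM2457 (-1.07 and -0.81, limma adjusted p 0.000217 and 0.0117). The groups did not overlap in any line, and each call was kept in all 6 fits without 1 library.

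Of 22 YAP and TAZ target genes, a list that includes CCN1, CCN2, ANKRD1, AMOTL2 and LATS2, 1 rose and 7 fell of 21 tested in U87 MG, and 1 rose and 8 fell of 20 in U87-R. In LN229 6 rose and 8 fell of 21, and in LN229-R 7 rose and 7 fell of 21. Over all genes tested, 13.6% passed in U87 MG, 14.7% in U87-R, 49.7% in LN229 and 38.6% in LN229-R. The median change was -0.18, -0.40, -0.15 and -0.11 in that order, beside -0.01, -0.00, -0.00 and -0.02 over all genes tested. Of the 20 tested in every line, LATS2 rose in all 4, and AXL, IGFBP3 and NT5E fell in all 4. IGFBP3, a carrier of insulin-like growth factors, showed the largest falls of the list in each line: -1.94, -2.19, -3.10 and -3.52 (limma adjusted p 0.00115, 0.00046, 4.31e-05 and 0.000121). AXL, a receptor tyrosine kinase, fell by 1.17, 0.86, 1.21 and 1.15, and NT5E, the ecto-enzyme CD73, fell by 0.68, 0.87, 0.74 and 0.70. The AXL call in U87-R was kept in 2 of 6 fits without 1 library, and the NT5E call in U87 MG in 1 of 6.

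Other targets passed in the LN229 family and not, or in the other direction, in the U87 family. NUAK2, a kinase of the AMPK family, rose by 1.78 in LN229 and 1.85 in LN229-R (limma adjusted p 8e-05 and 0.000284). It did not pass in U87 MG or U87-R, and the effects differed between the families (differences 1.92 and 1.90, limma adjusted p 0.00291 and 0.000944). TGFB2, a TGF-beta ligand, rose by 1.15 and 2.44 (limma adjusted p 0.00037 and 5.19e-05); its effect differed between LN229-R and U87-R (2.48, adjusted p 8.2e-05) and did not pass between LN229 and U87 MG (1.07, adjusted p 0.116). CRIM1, a transmembrane protein with cysteine-rich repeats, rose by 0.65 and 0.64 in LN229 and LN229-R and fell by 0.92 and 0.87 in U87 MG and U87-R, and both differences between families passed (limma adjusted p 0.00477 and 0.00151). The CRIM1 falls in U87 MG and U87-R were kept in 1 and 4 of 6 fits without 1 library, and both differences in all 12. The list held genes of both directions in every line.

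Of the 27 Hippo kinases and scaffolds, which include AMOTL2 and LATS2, 2 rose and 3 fell in U87 MG, 2 rose and 1 fell in U87-R, and 3 rose and 4 fell in LN229. In LN229-R 26 were tested, of which 3 rose and 2 fell. Beside these counts, 13.6%, 14.7%, 49.7% and 38.6% of all genes passed in the same order of lines. The counts in U87 MG and U87-R lay near these shares, and no count in any of the 4 lines is read as a result about the list. AJUBA, a LIM protein that binds LATS kinases, rose by 1.03 and 1.06 in LN229 and LN229-R. LIMD1, of the same family, fell by 0.77 and 0.87 there and by 0.60 in U87 MG. Among the TEAD factors, TEAD2, TEAD3 and TEAD4 rose in LN229 (0.67, 0.46 and 0.69) and LN229-R (0.92, 0.61 and 0.81), and did not pass in the U87 family. In LN229-R the TEAD2 call was kept in 1 of 6 fits without 1 library and the TEAD3 call in 4. The differences of these 3 effects between the families did not pass (adjusted p 0.0568 to 0.318 in limma).

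**Figure D4:**
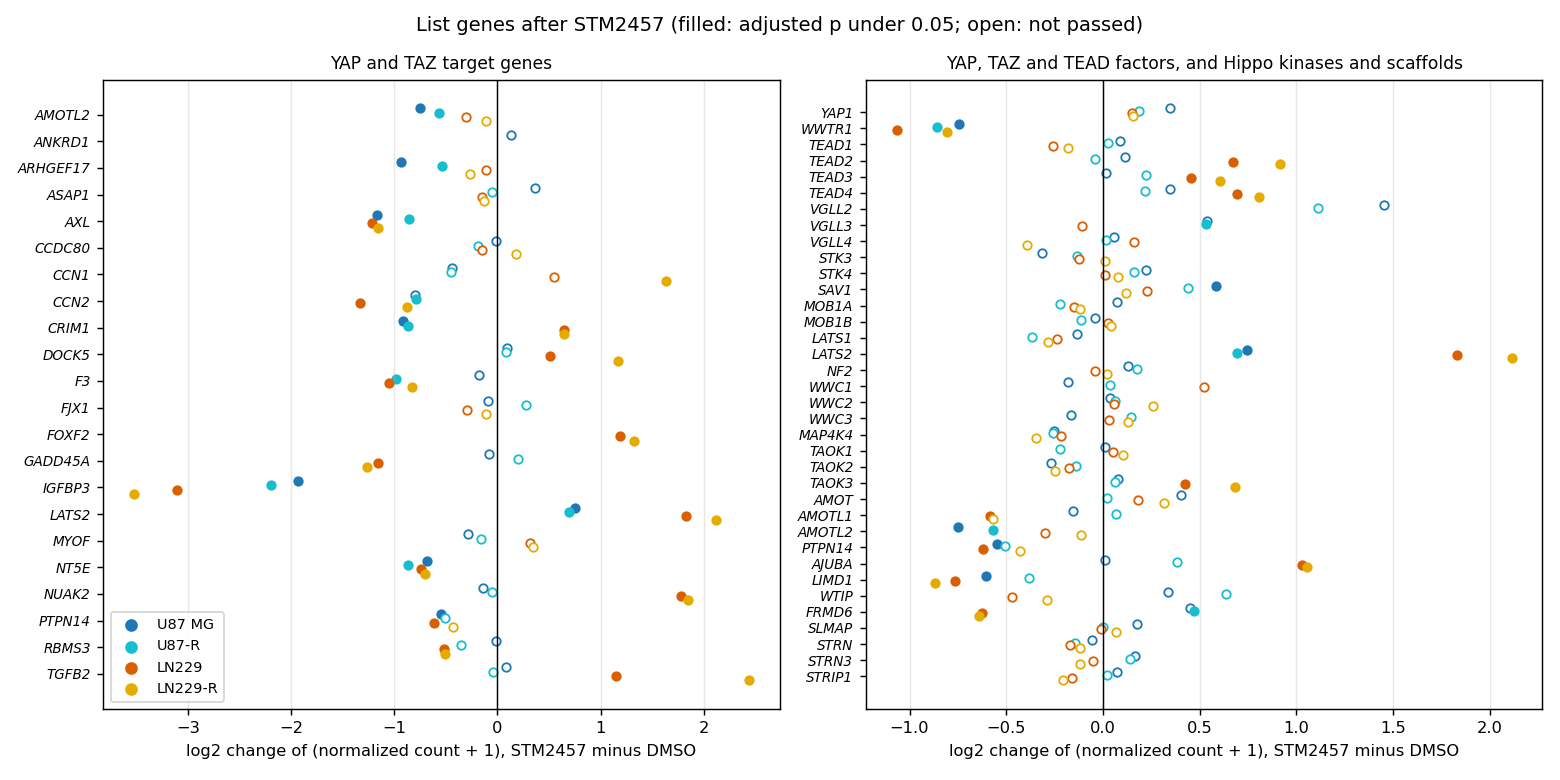
Change after STM2457 (log2 scale) of each YAP and TAZ target gene (left) and of each pathway factor, kinase and scaffold (right), coloured by line; filled points passed at an adjusted p under 0.05. LATS2 is filled and right of 0 in all 4 lines, and IGFBP3, AXL, NT5E and WWTR1 are filled and left of 0 in all 4.

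Of 10 receptors that bind CCN proteins tested in U87 MG 3 fell, and of 10 in U87-R 2 rose and 4 fell. Of 11 in LN229 4 rose and 4 fell, and of 11 in LN229-R 4 rose and 3 fell. The share of all genes that passed was 13.6%, 14.7%, 49.7% and 38.6% in that order of lines. With such shares in LN229 and LN229-R, the counts there are not read as a result about the receptors. The integrin subunit ITGB1 fell in all 4 lines, by 0.66, 0.84, 0.68 and 0.79; leaving out 1 library kept 2 of 6 of these calls in U87 MG and 5 of 6 in LN229-R. ITGA5 rose by 1.83 in LN229 and 1.75 in LN229-R (limma adjusted p 8.17e-05 and 0.000577) and by 0.60 in U87-R, where 3 of 6 fits without 1 library kept the call. SDC4, a heparan sulphate proteoglycan, fell by 0.78 in U87 MG, 1.16 in U87-R and 0.45 in LN229-R, the last kept in 2 of 6 such fits.

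CCN1 and CCN2 also respond to serum response factor and to TGF-beta, so targets of both were counted. Of the SRF and MRTF target genes 1 rose and 3 fell of 20 tested in U87 MG, 2 rose and 2 fell of 18 in U87-R, 3 rose and 4 fell of 18 in LN229, and 3 rose and 3 fell of 18 in LN229-R. One of the 4 in LN229 was CNN1, which reached the minimum through its DMSO group alone (19.89 against 5.969). ACTA2, smooth muscle actin, fell by 1.87 and 1.42 in LN229 and LN229-R. Of 14 TGF-beta induced genes 4 rose and 3 fell in U87 MG, 2 and 3 in U87-R, 5 and 4 in LN229 and 4 and 4 in LN229-R. Among all genes 13.6%, 14.7%, 49.7% and 38.6% passed in that order of lines. The counts of both lists in LN229 and LN229-R are not read as a result about them. Those of the SRF and MRTF list in U87 MG and U87-R lay near these shares and are not read as a result either. The inhibitory SMADs rose in all 4 lines, SMAD7 by 1.58, 0.97, 0.97 and 0.93 and SMAD6 by 1.23, 0.82, 2.30 and 3.04; the SMAD6 call in U87-R was kept in 4 of 6 fits without 1 library.

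Differences between the effects in 2 lines were fitted in 1 model of both tables. The effects of CCN4 and LATS2 were higher, on the signed log2 scale, in LN229 than in U87 MG, and those of CCN1 and LATS2 higher in LN229-R than in U87-R. That is 2 of 6 and 2 of 5 members tested without CCN3 and CCN5; 18.8% and 14.4% of all genes passed in these comparisons, 11.6% and 9.5% as higher. Of the genes called between LN229 and U87 MG 61.4% were higher, 45.6% with equal totals and 57.2% with equal upper quartiles. LATS2 differed by 1.08 (SE 0.148, limma adjusted p 0.000396) between LN229 and U87 MG and by 1.42 (SE 0.25, limma adjusted p 0.0024) between LN229-R and U87-R. CCN4 differed by 4.71 (SE 0.828, adjusted p 0.0021 in limma) between LN229 and U87 MG, with a DMSO mean near the minimum in LN229 (10.92). CCN1 differed by 2.08 (SE 0.279, adjusted p 0.000355 in limma) between LN229-R and U87-R. For CCN4 and CCN1 the effects compared had opposite signs. CCN4 changed by 4.17 in LN229 and -0.53 in U87 MG, and CCN1 by 1.64 in LN229-R and -0.45 in U87-R. Neither U87 change passed in the main fits. For CCN5, which reached the minimum in the LN229 lines through 1 group, the differences were 3.68 (SE 0.919) and 3.08 (SE 0.659), given as a description.

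For CCN2 no difference passed. It was -0.53 between LN229 and U87 MG (95% interval -1.23 to 0.16) and -0.09 between LN229-R and U87-R (95% interval -0.64 to 0.47). The AMOTL2 differences were 0.45 (adjusted p 0.177) and 0.46 (adjusted p 0.229), so its fall in the U87 lines was not shown to differ from the LN229 lines. No member passed between a resistant line and its parent, where limma called 0 of 15680 genes in the U87 family and 1 of 16511 (0.00606%) in the LN229 family. At an unadjusted p under 0.05 those counts were 586 and 651 genes. CCN5 differed by 1.33 between U87-R and U87 MG (SE 0.737, limma adjusted p 0.999; 95% interval -0.26 to 2.92), and CCN1 by 1.08 between LN229-R and LN229 (SE 0.348, limma adjusted p 0.897; 95% interval 0.33 to 1.84). For CCN3 these differences were 0.04 and 1.304, without a test.

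In DMSO, U87-R was compared with U87 MG. CCN3 is described only, since its DMSO libraries also entered the contrast that chose it, and ANKRD1 reached the minimum through U87 MG alone. Of the other 7 members tested 1 passed, against 4.27% of 16306 genes (3.13% higher, 1.15% lower). The resistance comparisons share their DMSO libraries with the treatment comparisons. ANKRD1 had 3.7, 2.0 and 4.2 normalized counts in U87-R and 35.0, 41.1 and 49.1 in U87 MG, with no overlap (-3.33, SE 0.46), a description without a test. CCN2 was higher in U87-R, at 655.9, 686.6 and 732.0 against 356.2, 252.4 and 466.5 (0.99, SE 0.207, limma adjusted p 0.0317). That call was kept in 1 of 6 fits without 1 library, with an adjusted p of up to 0.11. The CCN3 difference was -0.09 (SE 0.248), with overlapping groups. CCN1, CCN4, CCN5, AMOTL2, LATS2 and YAP1 did not pass (adjusted p 0.553 to 0.998).

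Between the libraries labelled LN229-R and LN229, 1 of 5 members tested without CCN3 passed, against 9.25% of 17136 genes (5.6% higher, 3.65% lower). The share of called genes that were higher was 60.5% as deposited, 71.6% with equal totals and 60.2% with equal upper quartiles. CCN3 had 50.2, 23.3 and 73.7 normalized counts in the libraries labelled LN229-R and 4.9, 1.0 and 8.2 in those labelled LN229 (3.25, SE 0.637). It reached the minimum through the libraries labelled LN229-R alone, and this too is a description without a test. The treatment tables give these same libraries the opposite names, under which CCN3 is lower in LN229-R. CCN1 had 751.3, 789.4 and 754.6 in those labelled LN229-R and 575.7, 492.0 and 605.6 in those labelled LN229 (0.46, SE 0.108, limma adjusted p 0.0354), a call kept in 1 of 6 fits without 1 library. YAP1 did not pass (0.36, adjusted p 0.147), though with the replicate block its adjusted p was 0.0265. CCN2, AMOTL2 and LATS2 did not pass, and CCN4 and CCN5 were below the minimum, at means of 12.96 and 8.147 labelled LN229-R against 1.938 and 1.676 labelled LN229.

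**Figure D5:**
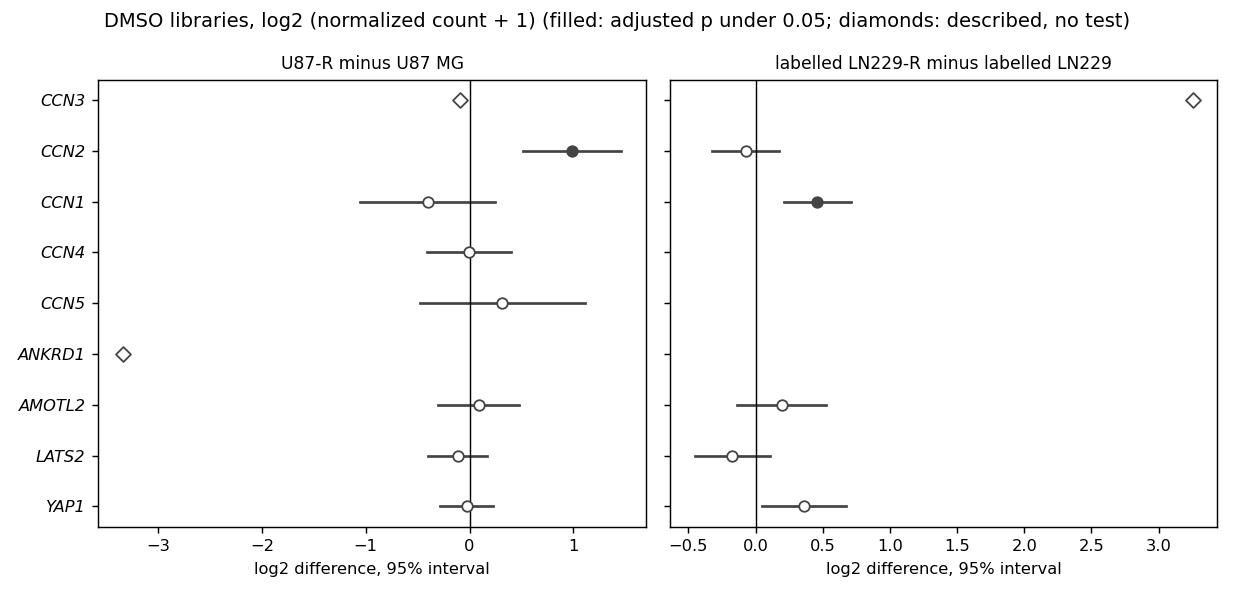
Difference in DMSO (log2 scale, points with 95% intervals) of U87-R minus U87 MG (left) and of libraries labelled LN229-R minus those labelled LN229 (right); filled points passed at an adjusted p under 0.05, and diamonds have no test and no interval. CCN2 (0.99) is filled on the left and CCN1 (0.46) on the right, and the diamonds of ANKRD1 (-3.33, left) and CCN3 (3.25, right) lie farthest from 0.

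VGLL3, a TEAD cofactor, averaged 100 normalized counts in the libraries labelled LN229-R and 0.9066 in those labelled LN229. It reached the minimum through the first group alone and is given without a test. Its mean was 89.7 normalized counts in the DMSO libraries named LN229 in the treatment table, and it was not listed in the LN229-R treatment table. In U87-R the Hippo scaffold WWC1 was 1.91 higher than in U87 MG (limma adjusted p 0.00705), and IGFBP3 0.94 higher (adjusted p 0.0312 in limma), the latter kept in 1 of 6 fits without 1 library.

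Over the 24 libraries of the 4 treatment tables, each library's deviation from its table's DMSO mean was correlated with that of CCN3 among 13362 genes, as a description without a test, since the points fall into treated and untreated groups. The 5 genes nearest to CCN3 were AHNAK2 (Pearson r 0.984), GREB1 (0.982), MID1 (0.972), MVP (0.97) and STX3 (0.967). LATS2 was ranked 93rd at 0.937, CCN5 953rd at 0.838 and CCN1 1894th at 0.737. YAP1 was ranked 4519th at 0.371, AMOTL2 7709th at -0.194 and CCN2 11415th at -0.669. The 5 nearest to CCN2 were HNRNPLL (0.942), MAGED2 (0.932), ARF4 (0.927), LOXL3 (0.917) and SPARC (0.916). LATS2 was at -0.81 from CCN2.

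The m6A mark is written mostly within a short consensus, of which GGACT is the commonest form. In the longest protein-coding transcript of GENCODE 29, CCN1 held 5 copies (2.18 per kb), CCN5 3 (1.88), AMOTL2 7 (1.55), LATS2 8 (1.45) and CCN4 7 (1.35). CCN2 held none, CCN3 1 (0.397 per kb), CCN6 1 (0.37), ANKRD1 1 (0.505) and YAP1 4 (0.741). The median over 19684 genes was 0.927 per kb. Letters in a transcript do not show that a site was methylated in these cells.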

How the data were processed

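The deposited values are a signal, normalized counts per gene, made by the authors and scaled in 6 separate tables of 6 libraries. Per the submitters' processing notes, Trimmomatic 0.39, STAR 2.7.11a, Salmon 1.4.0 and DESeq2 were used on GRCh38 (hg38), with no order or settings given. Whole reads could not be recovered: 33.5 to 64.4% of values under 10 lay within 0.05 of a multiple of the best step. Count tests were therefore not used. Within each table, log2(value + 1) was fitted with limma 3.58.1 in R 4.3.3 (variance trend, genes with a mean of at least 10), and p-values were adjusted by Benjamini-Hochberg over all genes tested, with 0.05 as threshold. The code was tested on simulated data. Members that reached that mean through 1 group only, and CCN3 in every comparison, are described without a test. Differences between effects used 1 model of the 12 libraries of 2 tables. Members and pathway lists were chosen with earlier results of these data known. Named genes were all members, METTL3, up to 3 passing genes of the lowest adjusted p per list, and the 5 genes most like CCN3 and CCN2. Like-numbered replicates were counted as paired where every pair of deviations correlated above 0.1. These were U87-R treatment (0.114 to 0.298), LN229-R treatment (0.102 to 0.321) and the LN229 resistance table (0.114 to 0.204). The main fits used no pairing in any table, and the fit with the replicate number as a block is given as an alternative. Sequences are from RefSeq and GENCODE 29. Python 3.11.15, numpy 2.4.6, pandas 2.3.3 and matplotlib 3.10.9 were used.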

Additional observations from a re-analysis of the deposited data

Results flagged for a closer look

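In all, 6 differences between the effects of STM2457 in a line of the LN229 family and in a U87 line were flagged. The lines were set together by the names of the treatment tables, which may be exchanged in the LN229 family. The flag was a limma adjusted p under 0.05 for the difference itself (log2 scale), and the 2 for CCN5 do not count as tested. Between LN229 and U87 MG the flagged differences were 4.706 for CCN4, 3.683 for CCN5 and 1.085 for LATS2. The CCN4 means were 10.92 in DMSO and 196.9 under STM2457 in LN229, and 330.0 and 240.3 in U87 MG. Between LN229-R and U87-R the flagged differences were 2.084 for CCN1, 3.078 for CCN5 and 1.419 for LATS2. The CCN1, CCN4 and LATS2 differences were each kept in all 12 fits that left out 1 library. The minimum mean was applied before a library was left out, and CCN4 in LN229 DMSO lay near it. CCN5 was near 0 in DMSO in both LN229 lines and reached the minimum there only through its STM2457 group, so its 2 differences are a description, their size depends on the pseudocount, and nothing is read from them. Medium, serum and library kit differ with the family and cannot be told apart from it.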

How the results depend on the processing

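No call of a member turned direction in any alternative. Member counts in this section include CCN5 in the LN229 lines, ANKRD1 in U87 resistance and CCN3 in both resistance comparisons, which the results give without a test. Members called, and then all genes called, are given in this order: U87 MG and U87-R, then LN229 and LN229-R under STM2457, then U87 and LN229 resistance. At an adjusted p under 0.01, 1 and 0 members were called in the first 2 and 1 and 0 in resistance, with 783, 811, 5480, 3521, 262 and 543 genes, and 1166 and 882 genes for LN229 minus U87 MG and LN229-R minus U87-R. Without the variance trend 1, 0, 1 and 1 members were called in the 2 U87 treatment and 2 resistance comparisons, with 1301, 1372, 396 and 951 genes, and 1 and 2 genes for U87-R minus U87 MG and LN229-R minus LN229. A minimum mean of 50 left 1 member in each resistance comparison. For U87-R minus U87 MG a pseudocount of 5 gave 1 gene, and for LN229-R minus LN229 a pseudocount of 0.5 gave 2 genes and equal totals 4.

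With the replicate number as a block, 5 members were called in U87 MG and 5 in U87-R, with 4137 and 4796 genes; U87 resistance had 1176 genes, LN229 resistance 2600, LN229-R minus LN229 3 and LN229-R minus U87-R 3757. In tables that missed the 0.1 rule for pairing, the block added CCN1, CCN2 and YAP1 in U87 MG (limma adjusted p 0.0368, 0.0203 and 0.0317). It also added CCN1 in LN229 (0.0458) and CCN1 for LN229 minus U87 MG (0.0215). Like-numbered correlations in these tables were 0.0395 to 0.186 in U87 MG, 0.0682 to 0.099 in LN229 and 0.0189 to 0.14 in U87 resistance. In U87 MG and LN229 each of the 3 DMSO libraries correlated best with the STM2457 library of its own number. Missing the rule therefore does not show that those samples were unpaired.

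Leaving out 1 library gave 1 to 5 members in U87 MG, 0 to 4 in U87-R, 4 to 5 in LN229, 4 in LN229-R, 1 to 2 in U87 resistance and 0 to 2 in LN229 resistance. These member counts still include CCN5 in the LN229 lines, ANKRD1 in U87 resistance and CCN3 in both resistance comparisons, which the results give without a test. Genes called were 890 to 1798, 882 to 2192, 6564 to 8621, 4321 to 6430, 305 to 600 and 550 to 3139. For the differences they were 0 to 5 (U87-R minus U87 MG), 1 to 4 (LN229-R minus LN229), 1867 to 2614 and 1447 to 1944. Exchanging the LN229 names of the resistance table turns the sign of the LN229 resistance comparison by construction. If the treatment tables carry the wrong names, the LN229-R minus LN229 differences of effects turn sign instead. The comparisons of an LN229 line with a U87 line would then each set a resistant line against a parental one. LN229-R DMSO replicate 2 had 4.24% of counts in ribosomal protein genes (2.57 and 2.73% in the others), and its removal kept the LN229-R calls of CCN1, CCN2 and LATS2. With 3 replicates a group, changes under the spread of these samples were not detectable.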
